A study of Mus musculus with 18 samples.

Results

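Fetal DN2 thymocytes were compared with adult DN3 thymocytes on Affymetrix mouse gene expression arrays, with 3 arrays for each of the groups, 6 of the 18 arrays of the series. All 22626 probe sets were compared, and 1 probe set was read for each of 12393 genes. The fetal DN2 arrays held RNA of lineage negative CD44+ CD25+ cells from C57BL/6 embryos labelled E14.5, with no sex given, and the study's methods name a later embryonic day. The adult DN3 arrays held RNA of lineage negative CD44- CD25+ cells from female C57BL/6 mice of 4 to 6 weeks. None of the mice carried a mutation or received a treatment, per the labels, and each extract came from 80000 cells. According to the methods, RNA of several sorts was pooled for each array, with more sorts for an adult than for a fetal array. Pooling thus differed together with age. The methods treat the arrays as technical replicates, whereas the labels call them biological, so that p-values measure the spread between these arrays, which may be technical. The other groups were ETP at both ages, fetal DN3 and adult DN2, again with 3 arrays each.

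T cell precursors pass through the ETP, DN2 and DN3 stages in the thymus before they express CD4 or CD8. DN2 cells still carry part of the programme of the progenitors that seed the thymus, and at DN3 the cells complete commitment to the T lineage, rearrange the T cell receptor β locus and are selected through the pre-T cell receptor, a complex of the rearranged β chain, the invariant pre-Tα chain and CD3. Fetal and adult thymi are seeded by different waves of progenitors, and the fetal waves are known for innate-like γδ T cells and for T cell receptors with few added nucleotides.

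The deposited log2 values had the median of the 18 arrays subtracted at every probe set. They show differences between arrays and no level of a gene. In whole-population RNA, fewer cells of a type and less RNA per cell cannot be told apart. Age and stage differed together in this pair and cannot be told apart within it. The opposite pair, fetal DN3 minus adult DN2, has the same difference in age with the stages turned round and shares no array with the first. Arithmetically, the difference between the pairs is the DN2 minus DN3 difference of the fetal cells added to that of the adult cells.

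The adult DN3 arrays were not alike. Cd44, which encodes the adhesion receptor used in the sort, had centred values of -0.43, 0.17 and 0.03 on the fetal DN2 arrays and of -7.97, -7.84 and -0.86 on the adult DN3 arrays, of which array 3 lay close to the fetal arrays. Over 24 stem and early progenitor genes the mean value was -0.57 on adult DN3 array 3, against -2.48 and -2.36 on arrays 1 and 2. The root mean square difference of array 3 from the adult DN2 mean was 0.463, against 0.758 and 0.671 for arrays 1 and 2. Sex-linked genes went against the label on arrays 2 and 3 of adult DN3, where Xist, transcribed from the inactive X chromosome, had values of -11.28 and -11.34 against 1.59 on array 1, and where the Y-linked genes Eif2s3y, Kdm5d and Uty were all higher than on array 1. Hbb-y, an embryonic globin, had values of 0.01, 4.53 and 2.85 on the fetal DN2 arrays, against -0.07, -0.03 and -0.05 on the adult DN3 arrays. These values are given again beside the genes they touch, and their part in any difference was not tested.

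Fetal DN2 cells differed from adult DN3 cells at 1189 of 22626 probe sets (5.26%), of which 534 (2.36%) were higher and 655 (2.89%) lower. A probe set or gene was called where the adjusted p of limma, fitted to all 18 arrays, was under 0.05 and the difference at least 1.8-fold. Read as genes, 345 of 12393 (2.78%) were higher and 416 (3.36%) lower in fetal DN2, and the median difference over all genes was 0.05 log2. The 6 arrays did not overlap between the groups for 7198 genes (58.1%), so that a gap between the groups was common at any size. Without adult DN3 array 3, 404 genes were higher and 389 lower, and 311 and 351 of the first calls remained. Of the genes called higher, 187 were called again with each of the 6 arrays left out in turn, as were 223 of those called lower. A fit of the 6 arrays alone, which has fewer arrays to estimate the spread from, called 132 probe sets higher and 171 lower.

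Over all probe sets the fetal DN2 mean was nearest to fetal ETP, at a root mean square difference of 0.451 log2 between group means, followed by fetal DN3 at 0.588, adult DN2 at 0.654, adult DN3 at 0.775 and adult ETP at 0.977. The adult DN3 arrays lay 0.963, 0.866 and 0.681 from the fetal DN2 mean, against 0.791, 0.690 and 0.823 for the adult DN2 arrays, and the arrays of these groups overlapped. The means of these distances differed by 0.0693 (exact permutation test, two-sided, p = 0.5). As 3 arrays against 3 cannot give a p below 0.1, the test could call no difference here. The difference between the mean distances was 0.0055 log2 without adult DN3 array 1 and 0.146 log2 without adult DN3 array 3.

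**Figure D1:**
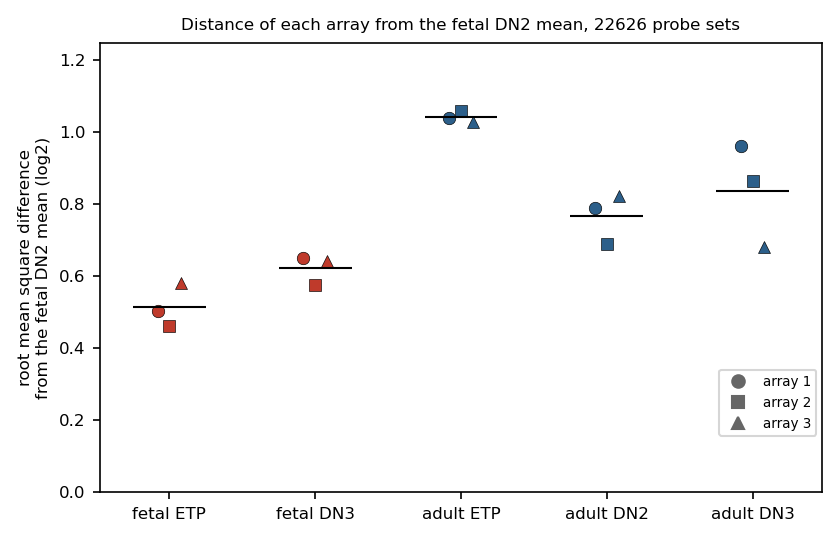
Root mean square difference in log2 of each array of the other 5 groups from the fetal DN2 mean over 22626 probe sets, on an axis that starts at 0; symbols are arrays 1 to 3, red for fetal and blue for adult, and lines are means of 3 arrays. The adult DN3 arrays, at 0.681 to 0.963, overlapped the adult DN2 arrays, at 0.690 to 0.823.

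The deepest fall in fetal DN2 concerned Dntt, which encodes terminal deoxynucleotidyl transferase, the enzyme that adds nucleotides at the joints of rearranged receptor genes. Its values were -5.68, -5.69 and -5.71 on the fetal DN2 arrays and 6.92, 7.09 and 6.83 on the adult DN3 arrays. The groups were far apart and the arrays of each nearly equal, with a difference of -12.64 ± 0.16 log2 (SE; limma adjusted p = 1.3e-14). In fetal DN3 minus adult DN2 the difference was -12.60, so that the fall followed age at both pairings of the stages.

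Among the 13 measured genes of V(D)J recombination and end joining, Dntt and Xrcc6 were lower and Polm was higher (3.36% and 2.78% of all genes were lower and higher), and 10 were not called. Xrcc6 encodes Ku70, which binds DNA ends, and had values of -0.89, -1.35 and -0.97 in fetal DN2 against 1.05, 0.58 and 0.50 in adult DN3, a difference of -1.78 (adjusted p = 0.0020). Polm encodes DNA polymerase mu, a relative of the Dntt product, and was 1.07 higher in fetal DN2 (adjusted p = 0.031), a call lost without any 1 of the arrays other than fetal DN2 array 1. The recombinase genes were not called. Rag1 had 1.68, -0.09 and 0.93 in fetal DN2 and 1.78, 2.33 and 2.06 in adult DN3, and Rag2 had 1.33, 0.66 and 1.03 in fetal DN2 and 0.79, 0.32 and 0.05 in adult DN3, with adjusted p of 0.14 and 0.33. Rag1 lay below the adult range on each fetal array, and Rag2 within or above it. Without fetal DN2 array 1 Rag1 was called lower (-1.64, adjusted p = 0.0381).

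Genes of the pre-T cell receptor and its proximal signalling were lower at 8 of 19 measured members (42.1%, against 3.36% of all genes) and higher at 1 (5.26%, against 2.78%). The median difference of the list was -1.33 log2, against 0.05 for all genes. Leaving out single arrays gave 4 to 8 lower members, with 4 when fetal DN2 array 3 was left out, and the fit of the 6 arrays alone gave 2. Zap70, the kinase that binds the phosphorylated receptor chains, had values of -0.47, -1.12 and -0.32 in fetal DN2 against 2.63, 3.63 and 2.88 in adult DN3, a difference of -3.68 ± 0.31 (SE; adjusted p = 1.1e-05). Cd247, the ζ chain of the CD3 complex, had -0.74, -2.33 and -1.45 in fetal DN2 against 1.46, 1.88 and 1.23 in adult DN3, a difference of -3.03 (adjusted p = 0.00099). Sh2d1a encodes the adaptor SAP, which couples SLAM family receptors to the kinase Fyn. It had -0.52, -4.25 and -3.37 in fetal DN2 against 3.54, 3.71 and 3.27 in adult DN3, a difference of -6.22 (adjusted p = 5.9e-05), with fetal DN2 array 1 nearest to the adult arrays. Ptpn22, a phosphatase that restrains receptor signalling, differed by -2.20 (adjusted p = 2.2e-05). These 4 kept their call with each array left out.

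Less firm calls of the same list were Lat, the membrane scaffold downstream of ZAP-70, with a difference of -1.38, Cd6, a surface receptor of T cells, with -3.13, and Rhoh, a GTPase that helps ZAP-70 to reach the receptor, with -1.0. Lat lost its call without fetal DN2 array 3 or adult DN3 array 1, Cd6 without any array other than adult DN3 array 1, and Rhoh without any 1 of the 6. Ptcra, which encodes pre-Tα itself, had 2.72, 0.34 and 0.93 in fetal DN2 against 4.63, 4.05 and 3.19 in adult DN3, and its difference of -2.63 (adjusted p = 0.036) lost its call without fetal DN2 array 2 or 3 or adult DN3 array 1 or 2, with an adjusted p of up to 0.18. Fetal DN2 array 1 was nearest to the adult arrays for Ptcra as for Sh2d1a. Cd3d and Cd3e, subunits of CD3, differed by -2.24 and -1.33 and were not called (adjusted p = 0.15 and 0.12). Cd3e was called lower without fetal DN2 array 1 (-1.74, adjusted p = 0.0398) and without adult DN3 array 3 (-1.76, adjusted p = 0.0327), and with array weights both genes were called lower, as was Cd3d by the unadjusted one-way test on the 6 arrays.

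The member that was higher was Txk, a tyrosine kinase of T cells. It had 3.87, 4.28 and 5.13 in fetal DN2 against -0.42, -0.34 and -0.40 in adult DN3. All fetal arrays lay far above all adult arrays, with a difference of 4.81 ± 0.45 (SE; adjusted p = 2.5e-05). Txk was 4.44 higher in fetal DN3 than in adult DN2 as well, where Zap70 went the other way and was 2.78 higher (adjusted p = 8.9e-05). In that pair 7 members of the list were higher and 2 lower, where 2.99% of all genes were higher and 2.24% lower.

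Transcription factors of the T lineage gave 8 lower genes (40%, against 3.36% of all genes) and no higher gene among 20 measured (limma, 0 higher also at an unadjusted p under 0.05, and 1 by the one-way test on the 6 arrays), with a median of -0.81, and 4 to 9 lower genes with single arrays left out (4 without fetal DN2 array 2) and 1 in the fit of the 6 arrays alone. Id3, an inhibitor of E proteins that is induced by receptor signals, had -0.02, -0.03 and -0.05 in fetal DN2 against 4.99, 6.24 and 5.20 in adult DN3. Its difference was -5.51 ± 0.30 (SE; adjusted p = 1.1e-07), and all fetal arrays lay at the gene's median over the series. Ets1, which is needed for thymocyte survival at the β checkpoint, differed by -3.35 (adjusted p = 0.0037), and its relative Ets2 by -2.36 (adjusted p = 0.00018). Spib, an Ets factor expressed at the DN3 stage, had 2.28, -0.18 and 0.39 in fetal DN2 against 4.29, 4.28 and 2.87 in adult DN3, a difference of -2.98 (adjusted p = 0.0084). These 4 kept their call with each array left out.

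The commitment factor Bcl11b had 0.70, -0.92 and -0.50 in fetal DN2 against 1.73, 1.58 and 1.45 in adult DN3. The groups did not overlap, and the difference of -1.83 (adjusted p = 0.044) lost its call without any array other than fetal DN2 array 1, with an adjusted p of up to 0.21. Runx1, which cooperates with Bcl11b in early thymocytes, differed by -1.80 (adjusted p = 0.029) and lost its call without the same 5 arrays. Satb1, a chromatin organizer of thymocytes, differed by -2.46 and lost its call without fetal DN2 array 2. Tcf12, which encodes the E protein HEB, differed by -1.16 and lost its call without 4 of the arrays, fetal DN2 arrays 2 and 3 and adult DN3 arrays 1 and 2. Lef1, a mediator of Wnt signals, had 3.88, 1.51 and 2.41 in fetal DN2 against 5.11, 4.55 and 4.04 in adult DN3 and was not called (-1.97, adjusted p = 0.077; -2.61 and called without fetal DN2 array 1, adjusted p = 0.0145), while it was 8.77 higher in fetal DN3 than in adult DN2. Gata3, a master regulator of T cell specification, differed by 0.17 and was not called (adjusted p = 0.80).

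Notch receptors instruct the T lineage, and the pathway had 1 higher and 1 lower gene among 21 measured, 4.76% each way against 2.78% and 3.36% of all genes, with a median of -0.01. These shares were near those of all genes, so that the values below are those of single genes. Nrarp, a target of Notch that also dampens it, had 0.79, 1.03 and 0.44 in fetal DN2 against -4.79, -3.45 and -2.10 in adult DN3. The groups were well apart, with a difference of 4.20 ± 0.66 (SE; adjusted p = 0.0017), and in fetal DN3 minus adult DN2 Nrarp was 3.42 higher. Notch3, a receptor gene that is itself a Notch target, had 0.29, 0.12 and -0.01 in fetal DN2 against 3.08, 4.83 and 0.78 in adult DN3, a difference of -2.76 (adjusted p = 0.026). The lowest adult value, on array 3, was near the fetal range, and the call was lost without any array other than that one. Other targets of the pathway had small differences. Hes1 differed by 0.07 and Dtx1 by -0.23, and neither was called, whereas fetal DN3 exceeded adult DN2 by 1.95 and 4.89 for these genes.

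**Figure D2:**
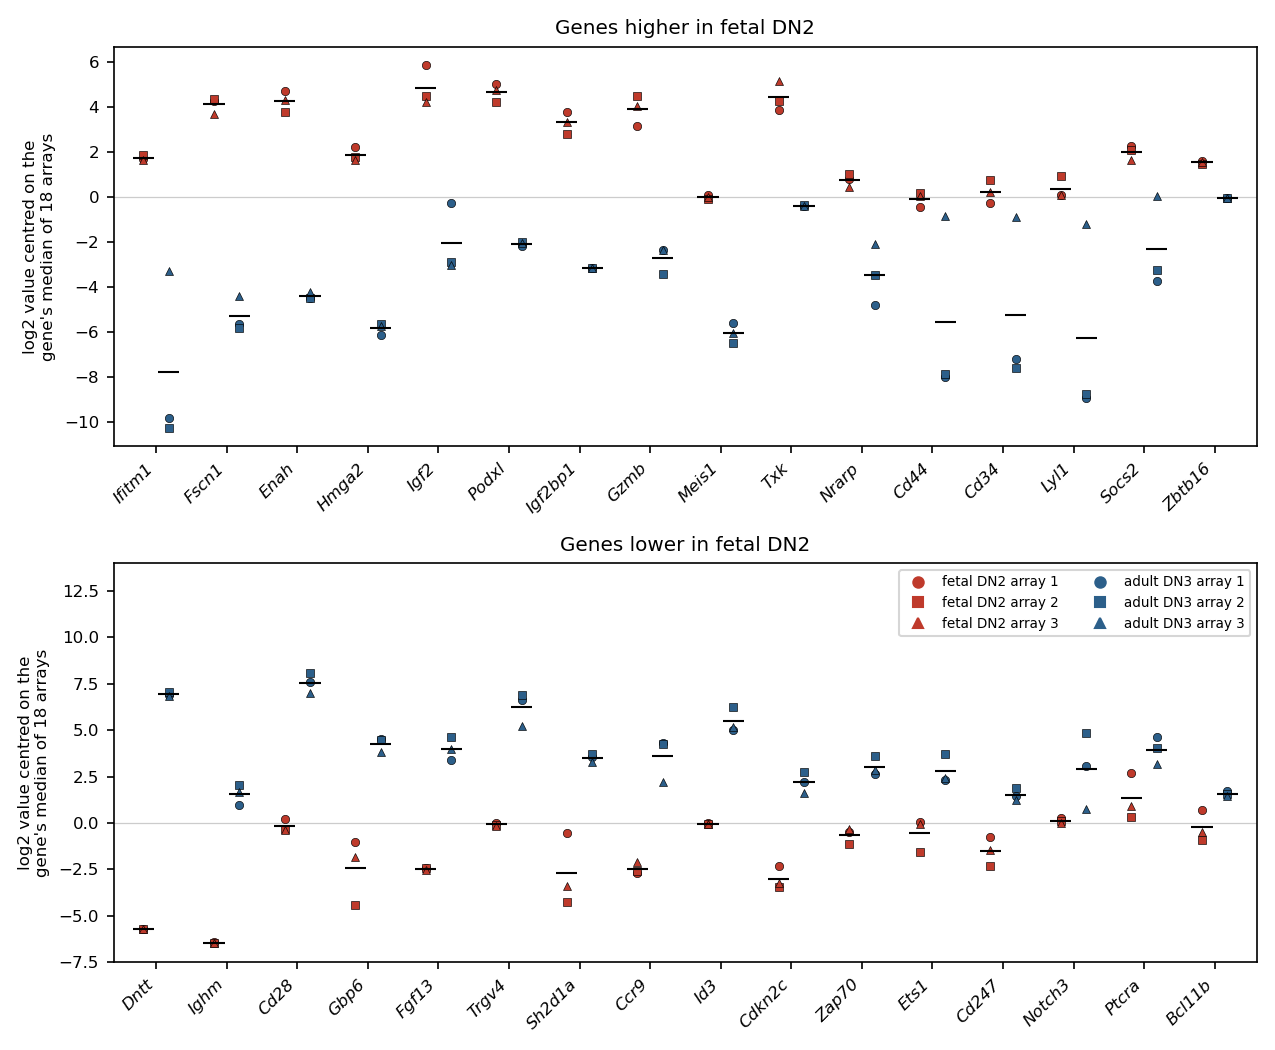
Centred log2 values of 32 genes on the 3 fetal DN2 arrays (red) and the 3 adult DN3 arrays (blue), with symbols for arrays 1 to 3 and lines for means of 3 arrays; genes higher in fetal DN2 are above and genes lower below. Adult DN3 array 3 (triangles) lies near the fetal arrays for Cd44, Cd34 and Lyl1, while both groups of Dntt, Id3 and Igf2bp1 are tight.

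Of 12 measured genes of later thymocytes 3 were lower in fetal DN2 (25%, against 3.36% of all genes) and 0 higher by limma (2.78% of all genes). At an unadjusted p under 0.05 limma had 0 higher as well, and the one-way test 2. Cd28, the costimulatory receptor, had 0.24, -0.30 and -0.36 in fetal DN2 against 7.61, 8.10 and 6.99 in adult DN3, a difference of -7.71 ± 0.59 (SE; adjusted p = 4.3e-06). Ccr9, the receptor for the thymic chemokine CCL25, had -2.69, -2.56 and -2.13 in fetal DN2 against 4.34, 4.26 and 2.19 in adult DN3, a difference of -6.05 (adjusted p = 4.0e-05). Both were distinct on every array, and both went the other way in fetal DN3 minus adult DN2, by 4.42 (adjusted p = 0.00041) and by 2.25 (adjusted p = 0.049, and 0.054 with replicate numbers as a block). Cd1d1, which presents lipids to NKT cells, was the other lower gene of the list, at -0.89 (adjusted p = 0.015), and lost its call without fetal DN2 array 1 or adult DN3 array 1 or 2. Trgv4, a variable segment of the T cell receptor γ locus, had 0.00, -0.08 and -0.14 in fetal DN2 against 6.65, 6.89 and 5.21 in adult DN3, a difference of -6.32 (adjusted p = 3.2e-08). Its near-identical relatives within the locus may share signal on a probe set.

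Other deep falls concerned genes outside the T cell lists. Ighm, the immunoglobulin μ chain whose locus is transcribed in early lymphoid cells, had -6.43, -6.45 and -6.46 in fetal DN2 against 0.99, 2.08 and 1.69 in adult DN3, a difference of -8.03 ± 0.23 (SE; adjusted p = 1.2e-10), and 2 of the 11 probe sets annotated to it were called, both lower. Ly6d, a surface protein of early lymphoid cells, had -0.42, 1.21 and -0.44 in fetal DN2 against 6.25, 6.42 and 5.78 in adult DN3, a difference of -6.03. Fgf13, which encodes an intracellular relative of the fibroblast growth factors, had -2.43, -2.45 and -2.54 in fetal DN2 against 3.42, 4.64 and 3.97 in adult DN3, a difference of -6.48. Klf9, a Krüppel-like factor responsive to glucocorticoids, had -1.38, -1.41 and -1.42 in fetal DN2 against 5.15, 4.09 and 3.71 in adult DN3, a difference of -5.72. For these 4 genes all fetal arrays lay below all adult arrays, and fetal DN3 was lower than adult DN2 too, with differences of -2.69, -4.28, -5.29 and -5.56. Cdkn2c, which encodes the cell cycle inhibitor p18, had -2.34, -3.44 and -3.22 in fetal DN2 against 2.19, 2.75 and 1.65 in adult DN3, a difference of -5.19 ± 0.41 (SE; adjusted p = 4.9e-06).

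On the other side stood genes of the fetal blood programme and imprinted growth genes, of which 6 of 17 measured were higher in fetal DN2 (35.3%, against 2.78% of all genes) and 0 lower by limma (1 lower at an unadjusted p under 0.05, and 0 by the one-way test), with a median of 0.07. Leaving out single arrays gave 5 or 6. Hmga2, a chromatin protein that sustains fetal haematopoietic stem cells, had 2.22, 1.76 and 1.65 in fetal DN2 against -6.12, -5.66 and -5.71 in adult DN3, a difference of 7.70 ± 0.28 (SE; adjusted p = 2.4e-09). Igf2bp1, which binds mRNAs and is mostly silent in adult tissues, had 3.79, 2.81 and 3.34 in fetal DN2 against -3.17, -3.13 and -3.15 in adult DN3, a difference of 6.46 (adjusted p = 5.5e-09). Igf2, a growth factor expressed from the paternal allele, had 5.85, 4.50 and 4.19 in fetal DN2 against -0.27, -2.88 and -3.02 in adult DN3, a difference of 6.91 (adjusted p = 8.0e-05). The groups were separated by wide gaps in all of these, and for Igf2 adult DN3 array 1 was nearest to the fetal arrays.

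Ndn, an imprinted growth suppressor of stem cells, was 5.15 higher (adjusted p = 0.00054), and Grb10, an imprinted adaptor that restrains insulin signalling, was 2.38 higher (adjusted p = 0.00019). Igf2bp3, a relative of Igf2bp1, was 3.03 higher (adjusted p = 0.014) and lost its call without fetal DN2 array 3 or adult DN3 array 1 or 2. In fetal DN3 minus adult DN2, 5 members of the list were higher (29.4%, against 2.99% of all genes), with Hmga2 at 4.95, Igf2bp1 at 6.18 and Igf2 at 10.27. Lin28a, which encodes an RNA-binding protein, was not called (0.11, adjusted p = 0.30). Lin28b, Igf2bp2, Hmga1 and H19 of the same list were not measured.

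Fscn1, Enah, Podxl and B4galnt2 were among the 20 largest rises. Fscn1, which bundles actin filaments, had 4.26, 4.37 and 3.70 in fetal DN2 against -5.63, -5.80 and -4.38 in adult DN3, a difference of 9.38 ± 0.74 (SE; adjusted p = 5.2e-06). Enah, which promotes actin elongation at the cell edge, had 4.69, 3.77 and 4.31 in fetal DN2 against -4.47, -4.51 and -4.23 in adult DN3, a difference of 8.66 (adjusted p = 3.0e-09). Podxl, a sialomucin of progenitors and endothelium, had 4.99, 4.23 and 4.75 in fetal DN2 against -2.17, -2.01 and -2.05 in adult DN3, a difference of 6.73 (adjusted p = 1.5e-09). Every fetal array was far above every adult array for the 3 genes. In fetal DN3 minus adult DN2 they were higher by 5.08, 8.64 and 4.30. B4galnt2, a glycosyltransferase, was 7.65 higher in fetal DN2 (adjusted p = 7.2e-09) and 7.34 higher in fetal DN3.

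The largest rise of all genes was that of Ifitm1, an interferon-inducible membrane protein that is also expressed by primitive cells. It had 1.69, 1.84 and 1.65 in fetal DN2 against -9.82, -10.25 and -3.31 in adult DN3, with array 3 of the adult group nearer to the fetal arrays. The difference was 9.52 ± 1.29 (SE; adjusted p = 0.00052), and 11.76 without adult DN3 array 3. Klf4, a factor that restrains proliferation, had 1.73, 1.02 and 1.78 in fetal DN2 against -4.41, -4.75 and -4.26 in adult DN3, a difference of 5.98 (adjusted p = 2.9e-05).

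Among stem and early progenitor genes 7 of 24 measured were higher in fetal DN2 (29.2%, against 2.78% of all genes) and 0 lower by limma (0 also at an unadjusted p under 0.05, by limma and by the one-way test), with a median of 0.39. Adult DN3 array 3 bears on this list, as its mean values were -0.46, -0.03 and -0.32 on the fetal DN2 arrays and -2.48, -2.36 and -0.57 on the adult DN3 arrays. Meis1, a cofactor of Hox proteins in stem cells, had 0.08, -0.11 and 0.01 in fetal DN2 against -5.62, -6.50 and -6.06 in adult DN3. Here array 3 lay between the other adult DN3 arrays, with a difference of 6.05 ± 0.32 (SE; adjusted p = 9.6e-08). Tal1, a regulator of blood specification, was 2.26 higher (adjusted p = 0.00081) and Bcl11a, a repressor of fetal globin genes, 2.54 higher (adjusted p = 0.0040), and both kept their call with each array left out.

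Adult DN3 array 3 stood apart from arrays 1 and 2 at other members. Lyl1, a relative of Tal1, had 0.08, 0.91 and 0.09 in fetal DN2 against -8.90, -8.74 and -1.19 in adult DN3. Cd34, a surface sialomucin of progenitors, had -0.28, 0.75 and 0.23 in fetal DN2 against -7.19, -7.58 and -0.90 in adult DN3, and Hhex, a homeobox factor of early lymphoid progenitors, had -0.61, 0.07 and -0.05 in fetal DN2 against -8.13, -8.07 and -1.07 in adult DN3. The groups did not overlap, but adult DN3 array 3 lay much nearer to the fetal arrays than to arrays 1 and 2. The differences were 6.64, 5.46 and 5.56 (adjusted p = 0.023, 0.019 and 0.030), and 9.18, 7.62 and 7.91 without adult DN3 array 3. Lyl1, Cd34 and Nfe2, a factor of megakaryocytes that was 3.04 higher, lost their calls without fetal DN2 array 2 or 3 or adult DN3 array 1 or 2, and Hhex also without fetal DN2 array 1. Of this list 3 members were called without fetal DN2 array 2 or 3 or adult DN3 array 1 or 2, and 8 without adult DN3 array 3. The fit of the 6 arrays alone called 1.

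Sort markers followed the gates in part. Cd44, of which adult DN3 cells were sorted as negative, was 5.48 higher in fetal DN2 (adjusted p = 0.030), 7.83 higher without adult DN3 array 3, and not called without any 1 of the other 5 arrays. Il2ra, which encodes CD25 and marks both groups, had 0.95, 1.41 and 0.62 in fetal DN2 against 0.89, -0.08 and 0.28 in adult DN3, and was not called (0.63, adjusted p = 0.58). Kit, the receptor for stem cell factor, had 0.26, 0.25 and -1.17 in fetal DN2 against -2.58, -2.09 and -0.003 in adult DN3, so that the groups overlapped (1.34, adjusted p = 0.32). Itgb7, an integrin chain that serves homing, had -0.19, 1.06 and 0.44 in fetal DN2 against -3.70, -6.45 and -1.77 in adult DN3, a difference of 4.41 (adjusted p = 0.0058).

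Natural killer and innate lymphoid genes had 5 higher members of 22 measured (22.7%, against 2.78% of all genes) and 0 lower by limma (0 also at an unadjusted p under 0.05, by limma and by the one-way test), with a median of 0.09, and 4 or 5 with single arrays left out. Gzmb, the cytotoxic protease granzyme B, had 3.17, 4.47 and 4.04 in fetal DN2 against -2.37, -3.41 and -2.35 in adult DN3, a difference of 6.60 ± 0.57 (SE; adjusted p = 1.1e-05). Zbtb16, which encodes PLZF, the factor of innate-like T cells, had 1.59, 1.47 and 1.53 in fetal DN2 against -0.06, -0.03 and -0.04 in adult DN3, a difference of 1.58 ± 0.15 (SE; adjusted p = 2.2e-05). For Zbtb16 the arrays of each group were close to each other, and for Gzmb all fetal arrays lay far above all adult arrays. Id2, an inhibitor of E proteins needed by innate lymphoid cells, was 1.79 higher (adjusted p = 0.00095) and Nkg7, a protein of cytotoxic granules, 1.93 higher (adjusted p = 0.0078). Cd244a, a SLAM family receptor of natural killer cells, had -1.27, 0.48 and 0.06 in fetal DN2 against -7.36, -7.38 and -2.07 in adult DN3, and lost its call without fetal DN2 array 2 or adult DN3 array 2. Of 11 measured γδ T cell genes 2 were higher (18.2%, against 2.78% of all genes) and 1 lower (9.09%, against 3.36%). Zbtb16 and Cd160, an inhibitory receptor of innate-like cells that was 2.46 higher, rose and Trgv4 fell.

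**Figure D3:**
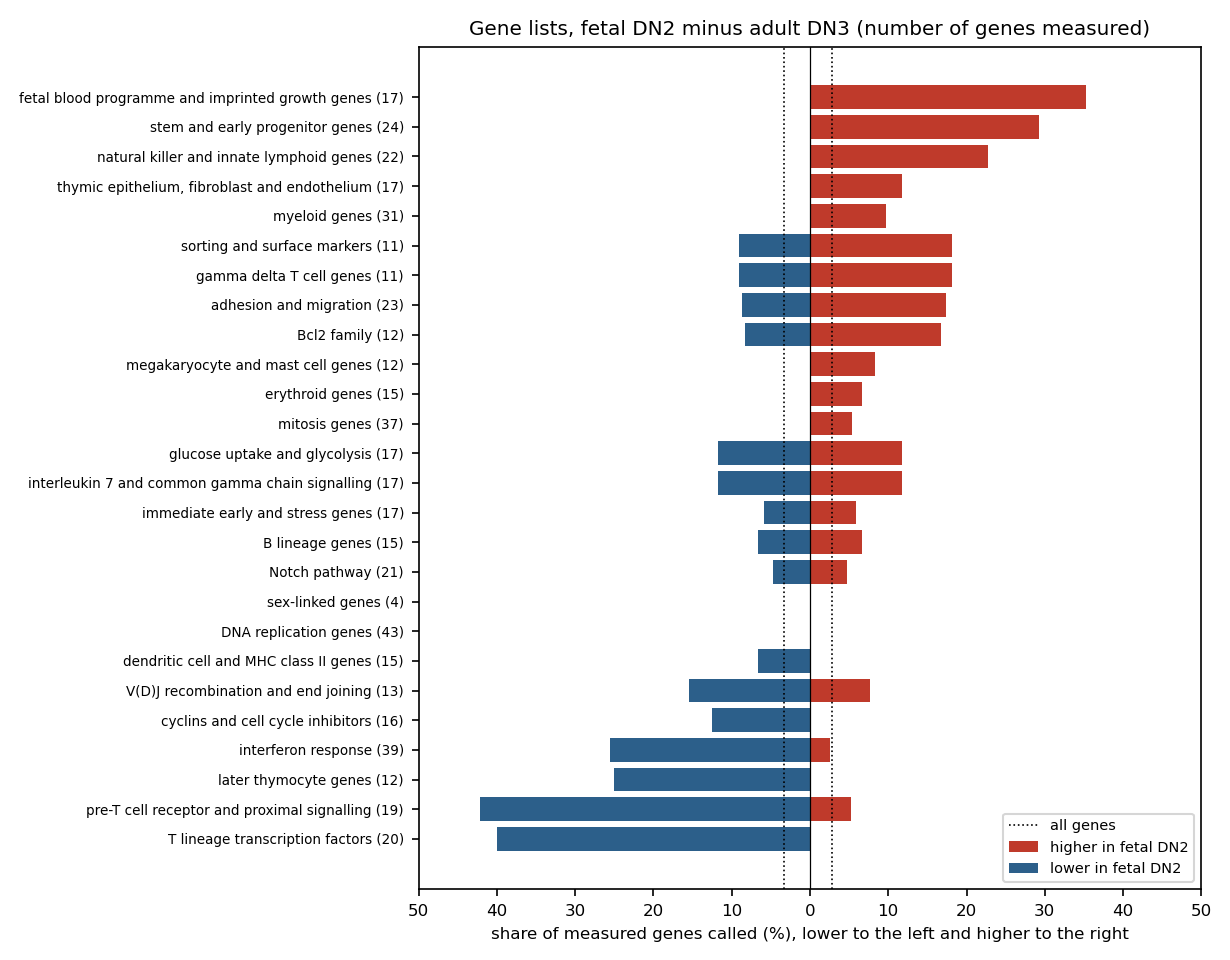
Share in percent of the measured genes of 26 gene lists that were called higher (red, to the right) or lower (blue, to the left) in fetal DN2 than in adult DN3, with the number of genes measured in brackets; dotted lines mark the shares of all genes, 2.78% and 3.36%. The bar of pre-T cell receptor genes to the left stands for 8 of 19 genes, and that of fetal and imprinted genes to the right for 6 of 17.

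Interferon response genes were lower in fetal DN2 at 10 of 39 measured members (25.6%, against 3.36% of all genes) and higher at 1 (2.56%, against 2.78%), with a median of -0.21, and 8 to 10 were lower with single arrays left out (8 without adult DN3 array 2 or 3). Dhx58, the RNA sensor LGP2, had -1.28, -1.39 and -1.40 in fetal DN2 against 1.34, 1.75 and 1.43 in adult DN3, a difference of -2.87 ± 0.54 (SE; adjusted p = 0.0054). Ifi47, an interferon-γ-inducible GTPase, had -0.69, -0.62 and -0.31 in fetal DN2 against 0.81, 0.85 and 0.95 in adult DN3, a difference of -1.41 (adjusted p = 4.3e-06). Gbp6, a guanylate-binding protein, had -1.03, -4.41 and -1.84 in fetal DN2 against 4.56, 4.47 and 3.81 in adult DN3, a difference of -6.70 (adjusted p = 2.4e-05). All fetal arrays were below all adult arrays for the 3 genes.

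Usp18, which removes the ubiquitin-like modifier ISG15, differed by -3.23, Iigp1, a GTPase acting on intracellular parasites, by -2.43, Ifit2, which binds viral RNA, by -2.10, and Rtp4, an interferon-induced transporter protein, by -1.57, all called with each array left out. Calls of Irf9, the DNA-binding part of the factor downstream of type I interferon (-1.46), of Tap1, a peptide transporter (-1.30), and of Rsad2, the antiviral enzyme viperin (-2.37), were lost on leaving out adult DN3 array 2 for Irf9, fetal DN2 array 3 or adult DN3 array 3 for Tap1, and any array but fetal DN2 array 3 for Rsad2. The higher member was Ifi204, a DNA-binding protein of the p200 family, at 3.87 (adjusted p = 0.019), lost without fetal DN2 array 1 or 3 or adult DN3 array 1 or 2. In fetal DN3 minus adult DN2, 10 members were lower (25.6%, against 2.24% of all genes) and 1 higher (2.56%, against 2.99%). Dhx58 was at -2.95 there, Ifi47 at -1.44 and Rsad2 at -4.46.

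The promoters of the list are shown for the sequence they share. In windows from 250 bases before to 50 after the start of a gene (RefSeq, GRCm38.p6), the interferon-stimulated response element, read as GAAA, any 2 bases and GAAA again on either strand, was found in 15 of 26 members with a window (57.7%), against 3.84% of 9887 measured genes with a window. Of the 10 lower members 5 had a window, and 1 of these, Rsad2, had the element, as did 14 of 21 members that were not called lower. Stretches of Rsad2 (chr12:26456533-26456602, minus strand), Ifit1 (chr19:34640755-34640843, plus strand) and Irgm1 (chr11:48871405-48871480, minus strand) are printed from 5′ to 3′ on the strand of the gene, with the element in capitals:
Rsad2: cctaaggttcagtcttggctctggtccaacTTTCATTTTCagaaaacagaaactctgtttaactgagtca
Ifit1: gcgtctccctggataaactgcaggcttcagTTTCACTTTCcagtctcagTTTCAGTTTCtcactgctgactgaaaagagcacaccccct
Irgm1: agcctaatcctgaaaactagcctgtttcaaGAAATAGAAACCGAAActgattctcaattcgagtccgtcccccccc
Rsad2 was lower in fetal DN2, while Ifit1, which binds viral RNA, differed by -0.78 and Irgm1, a GTPase of autophagy, by -0.18 (adjusted p = 0.42 and 0.74). The capitals of Irgm1 are overlapping matches. A match is a description of these letters and not a binding site.

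Signalling through interleukin 7 and related receptors had 2 higher and 2 lower genes of 17, 11.8% each way against 2.78% and 3.36% of all genes. Socs2, a feedback inhibitor of cytokine signals, had 2.27, 2.09 and 1.64 in fetal DN2 against -3.75, -3.24 and 0.05 in adult DN3, a difference of 4.31 (adjusted p = 0.0065), and 5.50 without adult DN3 array 3, which lay nearest to the fetal arrays. Pim1, a survival kinase induced by STAT5, was 1.92 higher (adjusted p = 0.0060). Cish, another feedback inhibitor of STAT5, had -1.30, -1.04 and -0.61 in fetal DN2 against 1.92, 1.10 and 0.89 in adult DN3, a difference of -2.29 (adjusted p = 0.0084), and Il21r, a cytokine receptor gene, differed by -1.94 (adjusted p = 0.0027). The feedback inhibitors Socs2 and Cish thus differed in opposite directions. Il7r itself was not called (-0.43, adjusted p = 0.41).

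Of 43 DNA replication genes limma called 0 (4 higher and 0 lower at an unadjusted p under 0.05, and 3 and 0 by the one-way test), with differences between -0.91 and 0.92 log2 and a median of 0.12. The list's mean was 0.01, 0.12 and 0.28 on the fetal DN2 arrays and -0.36, 0.03 and 0.28 on the adult DN3 arrays, which were thus spread widely. Of 37 mitosis genes 2 were higher, namely Cenpa, the histone variant of centromeres, and Cdc25c, the phosphatase that starts mitosis, both by 1.04, a share of 5.41% against 2.78% of all genes. With single arrays left out 0 to 4 mitosis genes were higher (4 without adult DN3 array 3, and 0 without 4 of the other arrays), and 0 with each array centred. Their mean was 0.33, -0.12 and 0.22 on the fetal DN2 arrays and -0.81, -0.06 and 0.34 on the adult DN3 arrays, so that the groups overlapped. Cenpa lost its call without any array other than adult DN3 array 3, and Cdc25c without any other than fetal DN2 array 2. Among 16 cyclins and cell cycle inhibitors 2 were lower (12.5%, against 3.36% of all genes), Cdkn2c and Rb1, the retinoblastoma protein gene. Rb1 differed by -1.04 (adjusted p = 0.048), a call lost without any array other than fetal DN2 array 1.

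Of 12 genes of the Bcl2 family 2 were higher (16.7%, against 2.78% of all genes) and 1 lower (8.33%, against 3.36%). Pmaip1, which encodes the death-promoting protein NOXA, had 1.50, 1.59 and 1.11 in fetal DN2 against -2.21, -2.54 and -2.06 in adult DN3, a difference of 3.67 (adjusted p = 0.0089). It was the member of the family that kept its call with each array left out, and it was 4.15 higher in fetal DN3 than in adult DN2. Bak1, an effector of the mitochondrial pathway, was 1.07 higher and lost its call without any array other than fetal DN2 array 1. Bcl2l11, which encodes the death-promoting protein BIM, differed by -2.47 and lost its call without fetal DN2 array 2 or 3 or adult DN3 array 1 or 2.

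Of 17 genes of glucose uptake and glycolysis 2 were higher and 2 lower, 11.8% each way against 2.78% and 3.36% of all genes. Leaving out single arrays gave 1 or 2 each way, and the fit of this pair's arrays alone gave 1 higher and 0 lower. Aldoa, the muscle-type aldolase that is also widespread in dividing cells, had 0.61, 1.01 and 0.79 in fetal DN2 against -0.89, -0.53 and -0.32 in adult DN3, a difference of 1.38 (adjusted p = 0.0054), and Slc2a1, the glucose transporter GLUT1, was 1.46 higher and lost its call without any array other than adult DN3 array 2. Ldhb, a lactate dehydrogenase subunit, had -0.66, -0.04 and 0.23 in fetal DN2 against 2.33, 2.26 and 1.28 in adult DN3, a difference of -2.12 (adjusted p = 0.00073), and turned to 2.04 higher in fetal DN3 minus adult DN2. Pfkm, a phosphofructokinase, differed by -0.97, a call lost without fetal DN2 array 1 or adult DN3 array 2.

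Of 23 adhesion and migration genes 4 were higher (17.4%, against 2.78% of all genes) and 2 lower (8.7%, against 3.36%), among them Cd44, Itgb7 and Ccr9. Itgav, the αv integrin chain, was 1.79 higher in fetal DN2 (adjusted p = 0.0017). Robo1, a guidance receptor, was 2.14 higher and lost its call without any 1 of the 6 arrays. Itgae, the integrin chain CD103, had 0.04, -1.71 and -0.93 in fetal DN2 against 0.69, 1.14 and -0.04 in adult DN3, so that the groups overlapped, and its difference of -1.46 (adjusted p = 0.049) lost its call without fetal DN2 array 2 or 3 or adult DN3 array 1 or 2. In fetal DN3 minus adult DN2 Itgae was 6.78 higher. Of 17 immediate early and stress genes Egr1, which is induced by receptor signals, was lower at -4.42 (adjusted p = 0.034) and Ier3, a stress-response gene, higher at 2.68 (adjusted p = 0.025). The share was 5.88% each way, near the 2.78% and 3.36% of all genes, so that these are values of single genes. Egr1 lost its call without any array other than adult DN3 array 3, and Ier3 without fetal DN2 array 2 or 3 or adult DN3 array 1 or 2.

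Some genes of other cell types that a sort could hold were higher in fetal DN2. The share was 9.68% of myeloid genes (3 of 31) and 11.8% of those of thymic epithelium, fibroblasts and endothelium (2 of 17), against 2.78% of all genes. For megakaryocytes and mast cells it was 8.33% (1 of 12), and for erythroid and B lineage genes 6.67% (1 of 15 each). A share that rests on 1 gene is the value of a single gene and is not read as an excess. Among 15 genes listed for dendritic cells and MHC class II, limma called 0 higher. At an unadjusted p under 0.05 limma had 0 higher there as well, and the one-way test 5. Of 31 myeloid genes 3 were higher, Fcer1g, Tyrobp and Ncf4, and 6 were higher without adult DN3 array 3. At an unadjusted p under 0.05 limma had 5 higher and 2 lower, and the one-way test 16 and 0, with differences down to -2.64. Fcer1g, the signalling chain of Fc receptors that natural killer cells also use, had 1.79, 2.94 and 1.50 in fetal DN2 against -1.74, -1.71 and -1.86 in adult DN3, a difference of 3.84 ± 0.42 (SE; adjusted p = 8.8e-05). Tyrobp, the adaptor DAP12 of myeloid and natural killer receptors, had -0.43, 1.39 and 0.44 in fetal DN2 against -3.99, -4.59 and -1.52 in adult DN3, a difference of 3.83 (adjusted p = 0.0039), and Ncf4, a subunit of the phagocyte oxidase, was 3.28 higher, a call lost without any array other than adult DN3 array 3. The mean over the 31 genes was -0.40, 0.13 and -0.14 on the fetal DN2 arrays and -0.89, -0.73 and -0.17 on the adult DN3 arrays, so that adult DN3 array 3 fell within the fetal range. The part of myeloid cells in these differences was not tested.

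Of 15 erythroid genes Gata1, the erythroid and megakaryocytic master regulator, was higher, with 1.55, 1.30 and 1.09 in fetal DN2 against -0.03, -0.33 and -0.55 in adult DN3, a difference of 1.62 (adjusted p = 0.0049). The list's mean was -0.10, 0.28 and 0.61 on the fetal DN2 arrays and -0.32, -0.30 and -0.07 on the adult DN3 arrays. Gata1 was highest on fetal DN2 array 1, where the embryonic globin Hbb-y was at 0.01. Itga2b, the platelet integrin CD41 that progenitors also carry, was 2.84 higher (adjusted p = 0.0025), 1 of 12 genes of megakaryocytes and mast cells. Of 17 genes of thymic epithelium, fibroblasts and endothelium, Krt18, a keratin, and Pdgfrb, a growth factor receptor of mesenchymal cells, were higher by 2.30 and 3.96 (adjusted p = 0.0039 and 0.0050), and the list's mean was 0.15, 0.12 and 0.13 on the fetal DN2 arrays and -0.01, -0.16 and -0.11 on the adult DN3 arrays. Of 15 B lineage genes Btk, a kinase that myeloid cells use as well, was 4.70 higher and Ighm lower (6.67% each way, against 2.78% and 3.36% of all genes). Of 15 dendritic cell and MHC class II genes H2-DMa, a peptide loading chaperone, was lower at -2.06 (6.67%, against 3.36%). That call was lost without any array other than fetal DN2 array 2. The part of these cell types was not tested.

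Setting the pair against the opposite pair divided its genes. Of the 345 genes higher in fetal DN2 than in adult DN3, 98 (28.4%) were also higher in fetal DN3 than in adult DN2, 30 (8.7%) were lower there and 217 were not called. Of the 416 lower genes, 78 (18.8%) were also lower, 50 (12%) were higher and 288 were not called. Over all genes, 2.99% were called higher and 2.24% lower in fetal DN3 than in adult DN2. The median of the higher genes was 2.15 log2 in their own pair and 0.35 in the opposite pair, and that of the lower genes -1.82 and -0.20. The difference between the pairs, tested in the same limma fit, was called in the same direction for 130 (37.7%) of the higher genes and 165 (39.7%) of the lower genes, where 1.98% of all genes were called higher and 2.75% lower. That difference contains the one by which these genes were chosen, so that nothing is read from these shares.

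Genes that went the same way in both pairs, as the ages do, included Dntt, Enah, Igf2bp1, B4galnt2, Meis1, Txk, Fgf13, Klf9 and the interferon gene Ifi47, for each of which the difference between the pairs was not called. Meis1 differed by 6.05 here and by 5.78 there. Genes that turned round between the pairs, as the stages do, included Cd28, Plxdc1 and Hdgfl3 on the low side. Hdgfl3, a relative of the hepatoma-derived growth factor, had 1.74, -0.12 and 0.00 in fetal DN2 against 6.74, 6.71 and 5.87 in adult DN3, a difference of -5.90, and was 8.15 higher in fetal DN3 than in adult DN2. Plxdc1, a membrane protein with a plexin domain, had -0.19, -0.21 and -0.21 in fetal DN2 against 8.15, 7.38 and 6.06 in adult DN3, a difference of -7.39, and was 3.97 higher in the opposite pair. On the high side, Cd44, Cd34, Hhex and Tyrobp were lower in fetal DN3 than in adult DN2, at -7.21, -6.74, -6.65 and -3.45. The differences between the pairs were 12.69, 12.20, 12.21 and 7.29 (limma adjusted p = 0.0016, 0.0011, 0.0024 and 0.00060). They contain the differences by which these genes were chosen, so that nothing is read from these p-values.

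Other genes were called here and not there. Id3 differed by -5.51 here and by 0.14 there, Zbtb16 by 1.58 and 0.03, Fcer1g by 3.84 and -0.58, and Socs2 by 4.31 and 0.14. The difference between the pairs was called for Id3, Zbtb16 and Fcer1g (limma adjusted p = 3.7e-06, 0.00060 and 0.00069) and not for Socs2 (adjusted p = 0.072). As it contains the difference by which these genes were chosen, its p-values are no separate evidence. H2-Q2, a class I major histocompatibility gene, had 0.02, -0.01 and -0.03 in fetal DN2 against 5.29, 7.23 and 6.35 in adult DN3, a difference of -6.30 (adjusted p = 0.00088), against -1.66 in the opposite pair, and the difference between the pairs was not called (adjusted p = 0.069). Its near-identical relatives within the locus may share signal on the probe set.

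**Figure D4:**
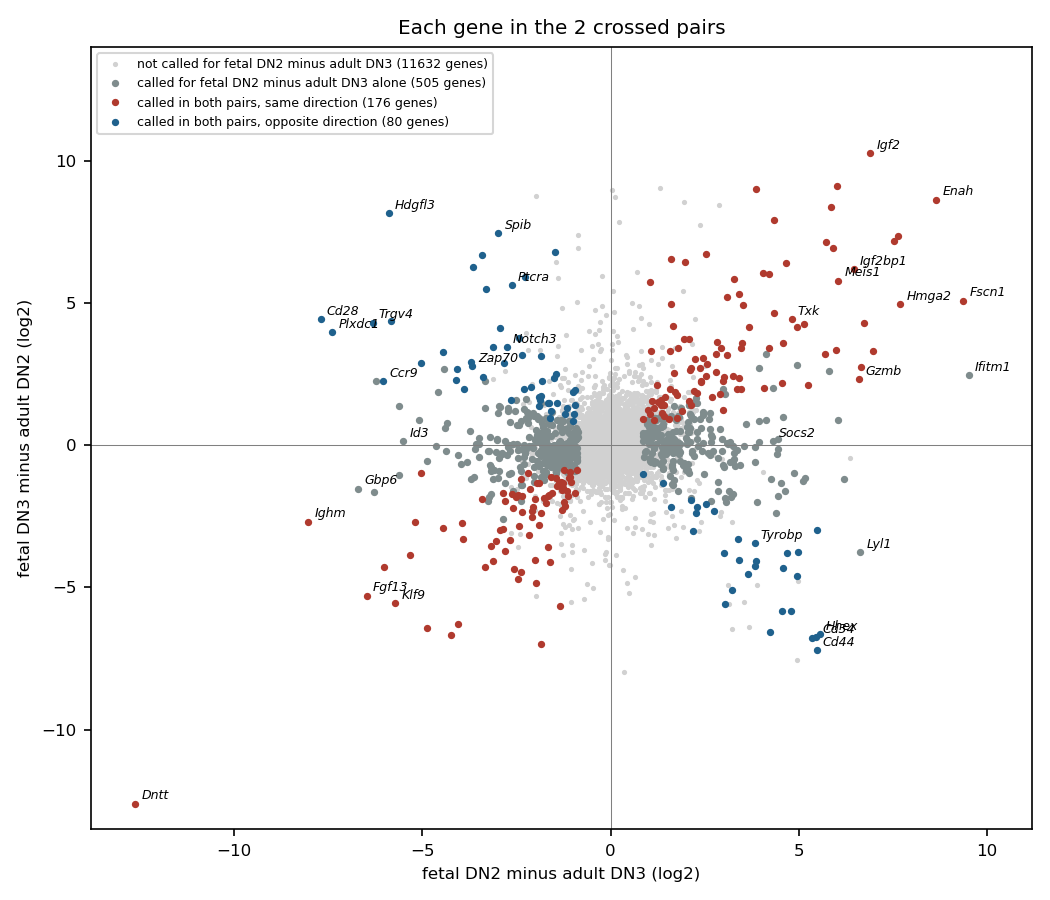
Difference of each of 12393 genes in fetal DN2 minus adult DN3 (horizontal, log2) and in fetal DN3 minus adult DN2 (vertical, log2), which share no array; colours show genes called in both pairs in the same direction (176) or in opposite directions (80), in the horizontal pair alone, or not called in it. Dntt and Enah lie on the rising diagonal, Cd28 and Cd44 on opposite sides of it, and Id3 near 0 on the vertical axis.

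The study's own text discusses 48 of the measured genes, and because it picked them from these same arrays their direction is no separate evidence. Of these 10 were lower (20.8%, against 3.36% of all genes) and 2 higher (4.17%, against 2.78%) in fetal DN2, with a median of -0.32. Leaving out single arrays gave 5 to 13 lower genes, with 5 without fetal DN2 array 2 or 3 or adult DN3 array 1 or 2. Itga2b and Robo1 were the higher genes. Cdh1, the adhesion protein E-cadherin, and Nrp1, a semaphorin receptor, differed by -0.58 and -0.87 and were not called (adjusted p = 0.42 and 0.38; Nrp1 was called lower without fetal DN2 array 1, at -1.59, adjusted p = 0.0475), and were 4.02 and 6.95 higher in fetal DN3 than in adult DN2. Spi1, which encodes the myeloid and progenitor factor PU.1, had -0.14, 2.47 and -0.25 in fetal DN2 against -1.59, -1.51 and -1.50 in adult DN3 and was not called (2.23, adjusted p = 0.26), other than higher with array weights. Fetal DN2 array 2 stood above the other fetal arrays for Spi1.

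**Figure D5:**
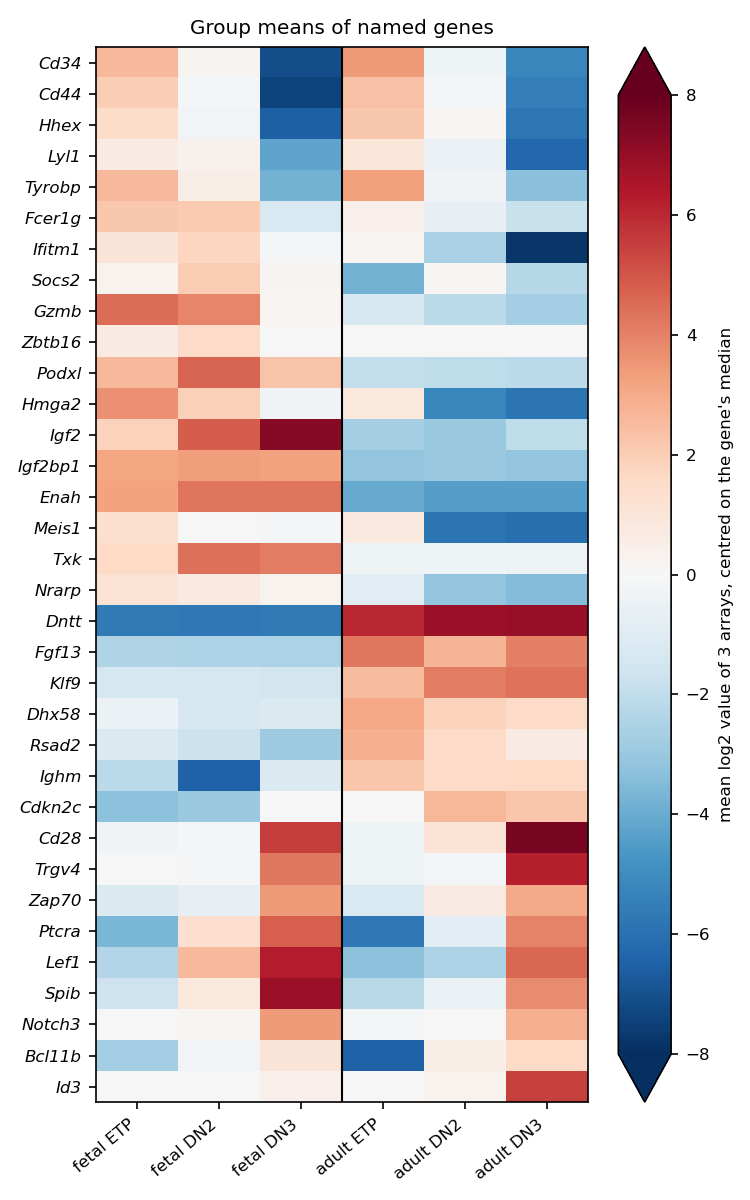
Mean centred log2 value of 3 arrays for 34 genes (lines) in fetal ETP, DN2 and DN3 and in adult ETP, DN2 and DN3 (columns), from blue for low to red for high, with the colour limited to 8 either way. Dntt, Fgf13 and Klf9 are blue in the fetal columns and red in the adult columns, whereas Cd34, Cd44 and Hhex are red in ETP, pale in DN2 and blue in DN3 at both ages.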

How the data were processed

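Gene expression was measured on Affymetrix arrays of sorted thymocytes. The deposited values are log2 values that the authors computed with GCRMA, per the submitters' processing notes. The median of the 18 arrays had been subtracted at every probe set, so that neither levels nor a filter on low signal could be had. The number of arrays limits the precision, and signal over background was not analysed here. No column was left unmapped.

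Differences were fitted with limma 3.58.1 in R 4.3.3 with a mean for each of the 6 groups over all 18 arrays, and p-values were adjusted (Benjamini-Hochberg) over 22626 probe sets. Calls needed an adjusted p under 0.05 and 1.8-fold. The self-test on simulated data recovered the changes put in. Of the probe sets 20380 had 1 gene, 691 several and 1555 none in the platform's annotation, and for each gene the probe set without a mark of cross-hybridization and with the largest SD was read (287 genes had only marked ones).

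Named genes were those with the 20 largest rises and 20 largest falls without overlap, up to 6 called members of each of 27 lists, and every member of the sort, sex-linked, pre-T cell receptor, Notch and V(D)J lists and of the study's text. Members and lists were chosen with earlier results of these data known. Deviations of same-numbered arrays from their group means had r of 0.213, -0.136 and 0.0434 in the pair. Different-numbered arrays of the pair had r of -0.189 to 0.217. For fetal DN3 and adult DN2 the values were 0.18, 0.125 and 0.2, against -0.237 to 0.11 for different numbers. No test was run on these values. The number was also fitted as a block for both pairs and for the difference between them, and the labels do not say what a number marks.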

Additional observations from a re-analysis of the deposited data

How the results depend on the processing

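Of 1189 probe sets called in fetal DN2 minus adult DN3, leaving out single arrays gave 718 to 1281, with 326 to 631 higher and 392 to 764 lower. There were 718 without fetal DN2 array 2 and 750 without adult DN3 array 2, 433 lower without fetal DN2 array 3 and 332 higher without adult DN3 array 1. For fetal DN3 minus adult DN2 the ranges were 744 to 1103 in all, 446 to 682 higher and 297 to 534 lower, and for the difference between the pairs 660 to 1102, 254 to 542 and 401 to 572. Fits of the compared arrays alone called 303 (132 higher and 171 lower) and 595 (343 and 252) in the 2 pairs, and 249 higher for the difference between them. Array weights gave 2139 (863 and 1276), and 1564 (643 and 921) for the difference, and quantile normalization 587 higher for the difference. A one-way test on the 6 arrays of a pair, with an adjustment that the methods do not name, gave 63 (38 and 25) and 284 (179 and 105). Other settings (centred arrays, quantile normalization, 2-fold or no fold threshold, robust moderation, filters on span and on cross-hybridization, and the unadjusted one-way test) gave 979 to 1644 for the first pair. The difference in distance to the fetal DN2 mean was 0.0055 to 0.146 with single arrays left out, 0.153 over the 7521 probe sets that differ between groups and 0.0735 with centred arrays. With replicate numbers as a block 1350 probe sets were called for fetal DN2 minus adult DN3, and 731 of the 761 genes called remained, but Slc2a1, Robo1 and Cenpa were lost. For fetal DN3 minus adult DN2 the block changed no call quoted here but that of Ccr9.

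Of 127 genes given with values, 66 were no longer called with the 6 arrays alone and 87 by the adjusted one-way test, among them Ifitm1, Igf2, Bcl11a and Socs2. Averaging a gene's probe sets ended the calls of Grb10, Id2, Nrk, Bak1, Itgav, Runx1, Rsad2, Rtp4 and Tap1, and quantile normalization those of Ncf4, Robo1, Rb1 and Itgae. The unadjusted one-way test ended those of Lyl1, Hhex, Cd44, Cd34, Nfe2, Notch3, Cenpa and Itgae, array weights those of Cenpa, Cdc25c and Cd1d1, centring those of Cenpa and Cdc25c, robust moderation those of Cdc25c, Rb1 and Itgae, the 2-fold threshold those of Pfkm and Cd1d1, and the filter on cross-hybridization that of Itgae. Array weights added calls of Lef1, Cd3d, Cd3e, Rag1, Spi1 and the 4 sex-linked genes, the filter on span added Lef1 and the unadjusted one-way test Cd3d. Differences near 0 that were never called changed sign, for Dtx1 to 0.024 after quantile normalization. With single arrays left out they lay between -0.572 and 0.202 for Dtx1, -0.063 and 0.412 for Gata3, -0.122 and 0.177 for Hes1, and -0.367 and 0.00 for Irgm1. The cause of these changes was not tested, beyond the fewer arrays of some fits.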

Other observations

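A comparison with all 5 other groups at once was added after the values had been seen. Of 12393 genes, 4 were called higher in fetal DN2 than in each other group, namely Gpx8, Podxl, Nrk and Zbtb16, and 3 were called lower, namely Ighm, St6gal1 and Crebrf. Gpx8, a peroxidase of the endoplasmic reticulum, had 3.12, 2.23 and 2.85 on the fetal DN2 arrays, against means of 0.52 in fetal DN3, 0.05 in fetal ETP, -0.05 in adult DN2, -0.18 in adult DN3 and -0.20 in adult ETP. All fetal DN2 arrays were thus above every other group's mean. Nrk, a kinase known from the placenta, had 1.69, 1.56 and 1.55 on the fetal DN2 arrays, against means of 0.58 in fetal ETP and -0.05 in adult DN3. St6gal1, a sialyltransferase, had -3.69, -3.17 and -2.15 on the fetal DN2 arrays, against means of -0.18 in fetal ETP and -0.02 in adult DN3.

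In adult DN3, 18 genes were called higher than in each other group and 9 lower. Id3 led the higher genes, followed by H2-Q2 and Scel, which encodes sciellin, a protein of cornified epithelia. Scel had 0.01, -0.001 and -0.01 on the fetal DN2 arrays and 5.50, 5.36 and 3.09 on the adult DN3 arrays, and its means in the other 4 groups lay between -0.14, in adult ETP, and 0.02, in fetal ETP. Adult DN3 array 3 was the lowest of its group.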
